A study of Mus musculus with 4 samples.

Results

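The 42 genes described here encode the machinery of G2 and mitosis, among them the kinase CDK1 and its cyclins, the anaphase-promoting complex, the spindle, the kinetochore and the proteins that condense chromosomes. They were taken as a list of symbols, each matched exactly to 1 of the 27998 genes of the count tables, and all 42 were found. Antigen-specific CD8+ T cells that bound the GP33 tetramer, which marks T cells specific for a peptide of lymphocytic choriomeningitis virus (LCMV), were sorted from spleens at day 8 after infection with the Armstrong strain and profiled by droplet single-cell RNA sequencing of 3′ transcript ends. WT (CD45.1) and *Bcl3*-/- (CD45.2) cells on a C57BL/6 background came from mixed bone marrow chimeras, that is, sub-lethally irradiated *Rag1*-/- hosts given marrow of both genotypes, so that both developed and responded in the same animal. Each of 2 chimeras gave a WT and a knockout library, named WT1 and KO1 for chimera 1, and WT2 and KO2 for chimera 2, hence n = 2 for each genotype. The age of the mice is not given in the sources used here. *Rag1*-/- hosts have no mature T or B cells of their own but keep other cells, natural killer, myeloid and stromal cells among them, and *Bcl3* is lost in every cell that derives from the knockout marrow.

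In a dividing cell, CDK1 bound to cyclin B drives entry into mitosis, the spindle checkpoint holds chromosome separation until every kinetochore is attached, and the anaphase-promoting complex then marks cyclin B and securin for destruction so that the cell can divide. Genes of this program are low in resting cells and rise late in the cell cycle, when repression by the DREAM complex at a promoter element called the cell cycle genes homology region is lifted and the factors B-MYB, FOXM1 and NF-Y act. Antigen-driven CD8+ T cells divide many times in the first week of an acute infection, and most have left the cell cycle around the peak of the response.

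Promoters are shown for 10 of the genes because their letters carry what the list shares and the rule did not use. Each is 150 bases of the RefSeq promoter table (GRCm38.p6), from 120 before to 30 after the annotated start, 5′ to 3′ on the strand of the gene. Capitals mark TTTGAA or its reverse complement TTCAAA, the core letters of the homology region, and CCAAT or its reverse complement ATTGG, the letters bound by NF-Y; in *Cdca8* a match of each kind overlaps.
Cdk1, chr10:69352883-69353032, minus strand: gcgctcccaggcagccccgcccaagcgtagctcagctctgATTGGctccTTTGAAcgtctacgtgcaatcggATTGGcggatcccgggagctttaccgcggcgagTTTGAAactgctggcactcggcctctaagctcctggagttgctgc
Ccnb2, chr9:70421525-70421674, minus strand: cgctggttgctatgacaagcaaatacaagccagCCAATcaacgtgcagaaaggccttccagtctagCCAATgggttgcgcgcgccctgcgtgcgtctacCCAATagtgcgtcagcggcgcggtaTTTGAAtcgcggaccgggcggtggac
Cdc20, chr4:118437314-118437463, minus strand: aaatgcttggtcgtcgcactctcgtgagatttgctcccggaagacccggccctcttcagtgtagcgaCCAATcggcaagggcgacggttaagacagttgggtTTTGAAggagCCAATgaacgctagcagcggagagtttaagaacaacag
Cks1b, chr3:89418262-89418411, minus strand: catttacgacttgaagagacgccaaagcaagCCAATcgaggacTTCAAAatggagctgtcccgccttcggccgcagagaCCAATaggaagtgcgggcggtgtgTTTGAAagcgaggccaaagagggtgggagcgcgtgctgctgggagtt
Cdca8, chr4:124936888-124937037, minus strand: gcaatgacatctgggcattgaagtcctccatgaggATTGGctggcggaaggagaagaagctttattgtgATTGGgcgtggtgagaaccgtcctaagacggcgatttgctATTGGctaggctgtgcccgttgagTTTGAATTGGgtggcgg
Kif22, chr7:127042391-127042540, minus strand: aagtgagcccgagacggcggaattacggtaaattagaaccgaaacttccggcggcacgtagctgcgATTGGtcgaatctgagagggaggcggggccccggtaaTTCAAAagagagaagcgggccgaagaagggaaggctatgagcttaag
Top2a, chr11:99024160-99024309, minus strand: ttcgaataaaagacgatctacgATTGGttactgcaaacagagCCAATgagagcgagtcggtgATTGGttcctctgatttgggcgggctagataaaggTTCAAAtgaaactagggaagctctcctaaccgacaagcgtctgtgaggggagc
Racgap1, chr15:99651627-99651776, minus strand: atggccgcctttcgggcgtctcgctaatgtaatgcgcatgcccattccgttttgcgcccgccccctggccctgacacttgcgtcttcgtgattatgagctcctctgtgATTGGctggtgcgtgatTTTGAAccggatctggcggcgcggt
Ccnb1, chr13:100786457-100786606, minus strand: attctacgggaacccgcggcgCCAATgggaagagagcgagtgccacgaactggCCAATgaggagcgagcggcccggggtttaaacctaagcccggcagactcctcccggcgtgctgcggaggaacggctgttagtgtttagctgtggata
Smc2, chr4:52439101-52439250, plus strand: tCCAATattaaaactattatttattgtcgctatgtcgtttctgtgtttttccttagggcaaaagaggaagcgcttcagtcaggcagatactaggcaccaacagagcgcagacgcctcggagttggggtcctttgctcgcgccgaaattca
*Ccnb1* and *Smc2* have no TTTGAA in the window, and the others have it close to the start. Over the 300 bases from 250 before to 50 after the start, read on both strands, TTTGAA was found in 27 of the 35 members with a promoter in the table (77.1%). It was found in 27 of 46 other G2/M genes (58.7%), in 3 of 31 S phase genes (9.68%) and in 4893 of all 27025 promoters (18.1%). CCAAT was found in 28 of the 35 (80.0%), in 32 of 46 other G2/M genes (69.6%), in 18 of 31 S phase genes (58.1%) and in 37.9% of all promoters. Both sets of letters together were found in 24 of the 35 (68.6%) and in 7.12% of all promoters. The related letters TTTAAA, which the *Ccnb1* sequence holds, were found in 9 of the 35 (25.7%) and in 13.2% of all promoters. They were found in 6 of 46 other G2/M genes (13.0%) and in 4 of 31 S phase genes (12.9%). Letters that E2F factors bind (TTTCCCGC, TTTGGCGC, TTTCGCGC or TTTGCCGC) were found in 1 of the 35 members, in 7 of the 46 other G2/M genes (15.2%) and in 11 of the 31 S phase genes, against 2.32% of all promoters. A match is a stretch of letters, not a measured binding site.

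The libraries held 21193300 UMIs in WT1, 22922219 in KO1, 20358780 in WT2 and 22672343 in KO2, a UMI being 1 counted transcript molecule. Barcodes were kept as cells if they had 500 genes or more and no more than 10% of UMIs from mitochondrial genes, which left 4941, 5366, 8092 and 6494 cells in the same order, with medians of 3571, 3620.5, 2019 and 2948 UMIs. WT2 was thus the shallowest library per cell. Libraries shared between 37 and 63 cell barcodes in pairs, where the products of their cell numbers over all barcodes gave 36.0 to 71.3. *Bcl3* had 0.332 of every 10000 UMIs in WT1, 0.276 in KO1, 1.08 in WT2 and 0.866 in KO2. The knockout libraries were lower within each chimera but far from 0, and the chimeras differed more than the genotypes. The deleted part of *Bcl3* is not given in the sources used here, and 3′ UMIs from outside it would not check the genotype labels. T cell genes marked the bulk of the cells. In each library 92.3% to 95.4% of cells lay in clusters of T cells, and the rest lay in B-like, plasma-like and myeloid-like clusters or in clusters under 1% of the cells.

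The 42 genes together made up 15.7 of every 10000 UMIs in WT1, 11.9 in KO1, 16.6 in WT2 and 14.995 in KO2. WT libraries averaged 16.1 ± 0.686 per 10000 and *Bcl3*-/- libraries 13.5 ± 2.18 (SD, n = 2 each). The sum was lower in the knockout in both chimeras, at 0.761 of the WT level in chimera 1 and 0.902 in chimera 2, and both knockout libraries lay below both WT libraries. All cells are summed here, so fewer cells in G2 or mitosis and less RNA per such cell cannot be told apart in this sum. Barcodes of at most 50 UMIs, which hold free RNA, had 15.7, 12.8, 16.2 and 16.1 member UMIs per 10000 in WT1, KO1, WT2 and KO2, close to the level of the cells of the same library. In T cell clusters alone the sum was 15.9 in WT1, 12.2 in KO1, 16.9 in WT2 and 14.9 in KO2.

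Over all cells, 40 of the 42 genes had a log2 fold change below 0 in *Bcl3*-/- cells, and their median was -0.35, against 0.01 over the 11566 genes tested. Without KO1, 35 of the 42 were below 0, at a median of -0.20. None of the 42 passed edgeR's quasi-likelihood test on the library sums at an adjusted p of 0.05, where 0.363% of all genes passed. At an unadjusted p under 0.05, edgeR gave 23 members, all lower, and 1808 of all genes. DESeq2 called 1 member lower, *Smc2*, and 71 of the 16538 genes it tested. With chimera as a replicate block, 15 of the 42 passed as lower and 0 as higher (edgeR with Benjamini-Hochberg adjustment), where 4.84% of all genes passed as lower. WT and knockout cells of a chimera shared an animal, so the block compares the genotypes within animals. In T cell clusters alone, edgeR called 0 members without the block, where 0.279% of all genes passed and 23 members and 1583 of all 11108 genes had an unadjusted p under 0.05, and DESeq2 also called 0 members. With the block, edgeR called 23 of the 42 lower in T cell clusters, against 6.14% of all genes. These were the 15 and *Mki67*, *Nusap1*, *Hmmr*, *Aurkb*, *Bub1*, *Kif20a*, *Tacc3* and *Ndc80*. All p-values between the genotypes rest on 2 libraries per genotype, and edgeR estimated the spread behind them partly from the other genes. With the block, that spread is what remains after the difference between chimeras is fitted.

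Both knockout libraries lay below both WT libraries in 29 of the 42 genes, and in 23.1% of the 11563 genes with a value in each library. The knockout was the lower of the pair in both chimeras for 35 of the 42 genes, and for 33.5% of all those genes. Chimera 1 had the lower log2 ratio in 36 genes, among them *Racgap1* and *Anln*, with a median log2 ratio of -0.47 over the 42 against -0.24 in chimera 2. Those 2 genes were higher in the knockout in both chimeras, neither past the test.

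**Figure D1:**
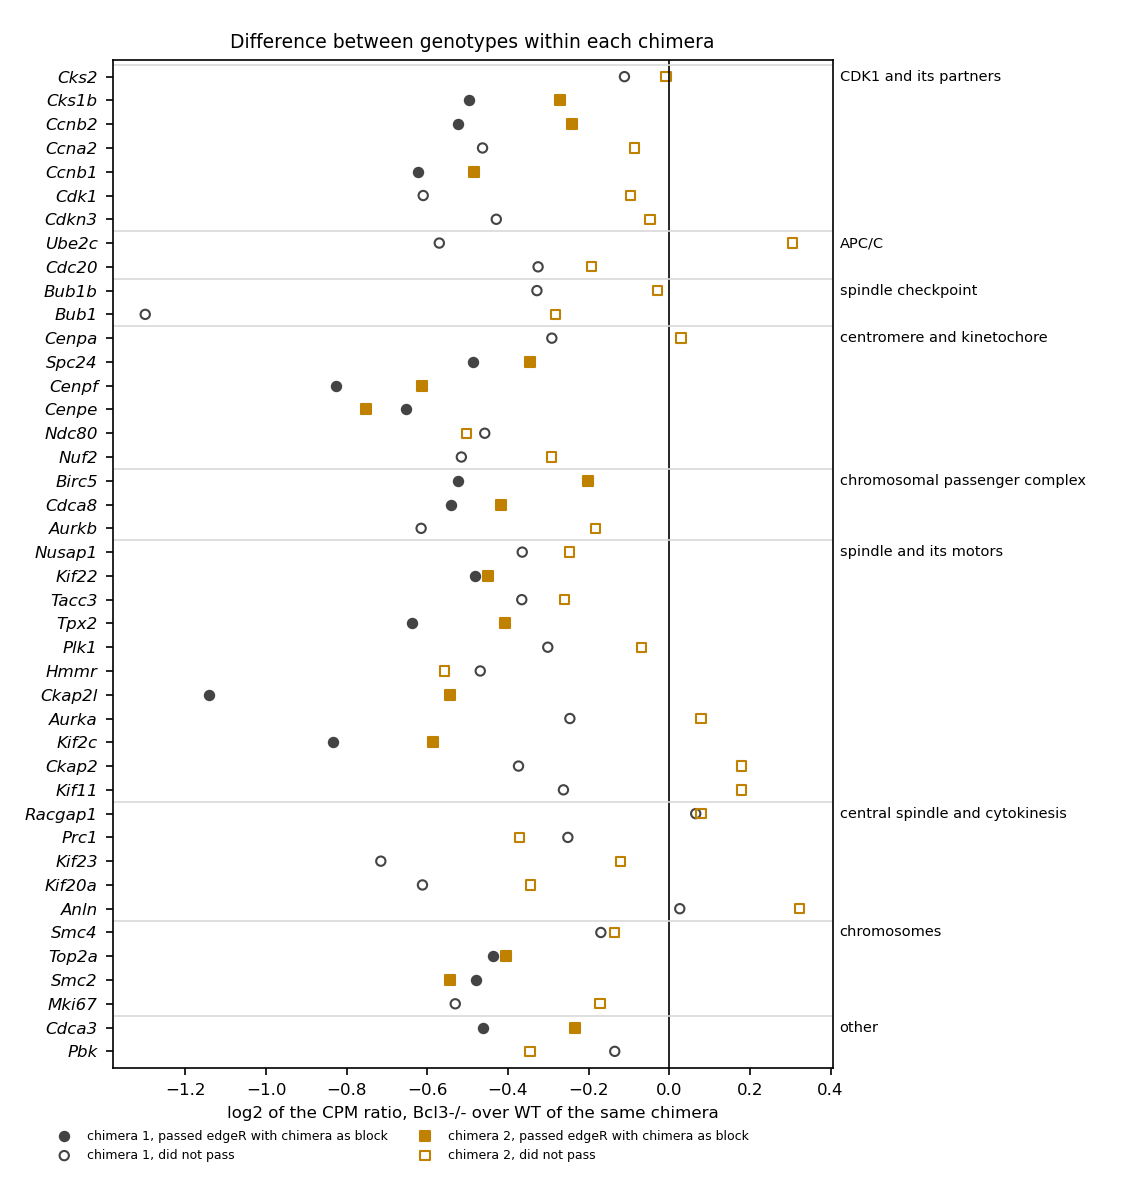
The horizontal axis is the log2 ratio of CPM in *Bcl3*-/- over WT cells of the same chimera, with 1 line per gene and genes grouped by role. Circles are chimera 1, squares are chimera 2, and filled marks are the 15 genes that passed edgeR with chimera as a block. Most marks lie left of 0, and those of chimera 1 lie farther left in 36 of the 42 genes.

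The kinase CDK1 and its partners (7 genes) made up 25.2% of the member UMIs. Their sum was 4.09 in WT1, 3.06 in KO1, 4.04 in WT2 and 3.70 in KO2 per 10000 UMIs. All 7 had a log2 fold change below 0 and were lower in the knockout within each chimera, and 3 passed the blocked test. Over all genes 33.5% were lower within each chimera and 4.84% passed as lower. *Ccnb1* (chromosome 13, 100778650 to 100786570, minus strand of GRCm38), the cyclin B1 that activates CDK1 at mitotic entry, had 27.2 CPM in WT1, 17.7 in KO1, 31.7 in WT2 and 22.6 in KO2, where CPM is the UMIs of a gene scaled by edgeR to a common total per library. A CPM of 3′ UMIs counts transcript ends and is not divided by gene length, because each molecule gives 1 end whatever its length. Both knockout libraries lay below both WT libraries in *Ccnb1*, with a log2 difference of -0.55 ± 0.10 (SE; edgeR's adjusted p was 0.00353 with the chimera block and 0.169 without it). *Ccnb2* (chromosome 9, 70407692 to 70421547, minus strand), cyclin B2, had 93.4 CPM in WT1, 64.97 in KO1, 82.1 in WT2 and 69.4 in KO2. The groups did not overlap, with a log2 difference of -0.38 ± 0.08 (SE; edgeR's adjusted p was 0.00845 with the chimera block and 0.156 without it). *Cks1b* (chromosome 3, 89415472 to 89418383, minus strand), a small subunit that binds cyclin-dependent kinases, had 112 CPM in WT1, 79.2 in KO1, 96.7 in WT2 and 80.1 in KO2. The knockout libraries were again the lower in each chimera, with a log2 difference of -0.38 ± 0.08 (SE; edgeR's adjusted p was 0.00564 with the chimera block and 0.156 without it). *Cks2* (chromosome 13, 51645232 to 51650660, plus strand), its close relative, had 93.2 CPM in WT1, 86.3 in KO1, 101 in WT2 and 101 in KO2, and the groups overlapped (log2 difference -0.06 ± 0.11 SE, with edgeR's adjusted p at 0.845 without the block and 0.669 with it). Of the last 400 bases of the *Cks2* transcripts, 32.2% are shared with the transcripts of *Gm12891*, *Gm15452* or *Gm19945*, so its level is uncertain. *Cdk1* itself had 27.4 CPM in WT1, 17.96 in KO1, 26.6 in WT2 and 24.9 in KO2. Its difference was -0.61 in chimera 1 and -0.10 in chimera 2 on the log2 scale and did not pass the test with the block (adjusted p = 0.0903 from edgeR).

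The anaphase-promoting complex was represented by its activator *Cdc20* and by *Ube2c*, the enzyme that hands it ubiquitin. *Cdc20* (chromosome 4, 118432901 to 118437352, minus strand) had 44.8 CPM in WT1, 35.8 in KO1, 45.8 in WT2 and 40.1 in KO2. The knockout was lower in both chimeras without overlap (log2 difference -0.26 ± 0.09 SE, with edgeR's adjusted p at 0.264 without the block and 0.0722 with it). *Ube2c* (chromosome 2, 164769898 to 164778822, plus strand) had 61.1 CPM in WT1, 41.2 in KO1, 43.5 in WT2 and 53.8 in KO2. Its log2 ratio was -0.57 in chimera 1 and 0.31 in chimera 2, so the chimeras went opposite ways and the groups overlapped (log2 difference -0.14 ± 0.18 SE, with edgeR's adjusted p at 0.766 without the block and 0.633 with it). The spindle checkpoint kinases were low. *Bub1* (chromosome 2, 127801122 to 127831865, minus strand), which recruits checkpoint proteins to the kinetochore, had 5.58 CPM in WT1, 2.27 in KO1, 4.83 in WT2 and 3.97 in KO2. KO1 stood lowest, and the ratio was -1.30 in chimera 1 and -0.28 in chimera 2, with adjusted p = 0.0623 from edgeR with the block over all cells and 0.0343 in T cell clusters, where it passed. Without the block, the difference of *Bub1* was -0.73, -0.39 without KO1 and -1.20 without KO2. *Bub1b* (chromosome 2, 118598211 to 118641591, plus strand), which encodes BUBR1, the part of the checkpoint that holds CDC20, had 9.49 CPM in WT1, 7.56 in KO1, 11.6 in WT2 and 11.3 in KO2, and the groups overlapped (log2 difference -0.15 ± 0.22 SE, with edgeR's adjusted p at 0.784 without the block and 0.575 with it).

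The 6 centromere and kinetochore genes, which tie chromosomes to microtubules, summed to 2.15 in WT1, 1.61 in KO1, 2.27 in WT2 and 2.02 in KO2 per 10000 UMIs. All 6 log2 fold changes were below 0, and 3 passed the blocked test, where 4.84% of all genes passed as lower. *Cenpe* (chromosome 3, 135212537 to 135273611, plus strand), a kinetochore motor that brings chromosomes to the spindle equator, had 17.5 CPM in WT1, 11.1 in KO1, 22.4 in WT2 and 13.3 in KO2. Both chimeras showed a fall of similar size, -0.65 in chimera 1 and -0.75 in chimera 2, with a log2 difference of -0.70 ± 0.13 (SE; edgeR's adjusted p was 0.00414 with the chimera block and 0.139 without it). *Cenpf* (chromosome 1, 189640606 to 189688086, minus strand), a large kinetochore protein that accumulates in G2, had 18.2 CPM in WT1, 10.3 in KO1, 23.9 in WT2 and 15.6 in KO2. The groups did not overlap, with a log2 difference of -0.71 ± 0.13 (SE; edgeR's adjusted p was 0.00318 with the chimera block and 0.228 without it). Without the block and without KO1, which leaves the chimeras unbalanced, the difference of *Cenpf* was -0.43. *Spc24* (chromosome 9, 21755442 to 21760303, minus strand), a subunit of the NDC80 complex that grips microtubules, had 37.97 CPM in WT1, 27.1 in KO1, 41.98 in WT2 and 33.1 in KO2. The knockout libraries were below both WT libraries, with a log2 difference of -0.41 ± 0.09 (SE; edgeR's adjusted p was 0.00995 with the chimera block and 0.201 without it). *Cenpa* (chromosome 5, 30666777 to 30674830, plus strand), the histone H3 variant that marks centromeres, was the most abundant of the 6 and had 126 CPM in WT1, 103 in KO1, 113 in WT2 and 115 in KO2. Its ratio was -0.29 in chimera 1 and 0.03 in chimera 2, and the groups overlapped (log2 difference -0.13 ± 0.10 SE, with edgeR's adjusted p at 0.581 without the block and 0.356 with it). *Ndc80* and *Nuf2*, the other subunits of the NDC80 complex on the list, had log2 fold changes of -0.48 and -0.39 and did not pass either fit over all cells, and *Ndc80* passed the blocked fit in T cell clusters (adjusted p = 0.0485 from edgeR).

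The chromosomal passenger complex, whose kinase Aurora B corrects faulty attachments and then guides cytokinesis, summed to 1.86 in WT1, 1.27 in KO1, 1.85 in WT2 and 1.58 in KO2 per 10000 UMIs. Its 3 genes were lower in the knockout in both chimeras without overlap, and 2 passed the blocked test. Over all genes 23.1% were lower without overlap and 4.84% passed as lower. *Birc5* (chromosome 11, 117849251 to 117855743, plus strand), which encodes survivin, had 113 CPM in WT1, 78.5 in KO1, 102 in WT2 and 88.5 in KO2. That was a log2 difference of -0.36 ± 0.08 (SE; edgeR's adjusted p was 0.0125 with the chimera block and 0.186 without it). *Cdca8* (chromosome 4, 124918465 to 124939311, minus strand), which encodes borealin, had 56.3 CPM in WT1, 38.7 in KO1, 59.2 in WT2 and 44.4 in KO2. The 4 libraries fell into pairs by genotype, with a log2 difference of -0.48 ± 0.08 (SE; edgeR's adjusted p was 0.00202 with the chimera block and 0.119 without it). *Aurkb*, the kinase, had a ratio of -0.62 in chimera 1 and -0.18 in chimera 2 and did not pass either fit over all cells, and passed the blocked fit in T cell clusters (adjusted p = 0.0275 from edgeR).

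**Figure D2:**
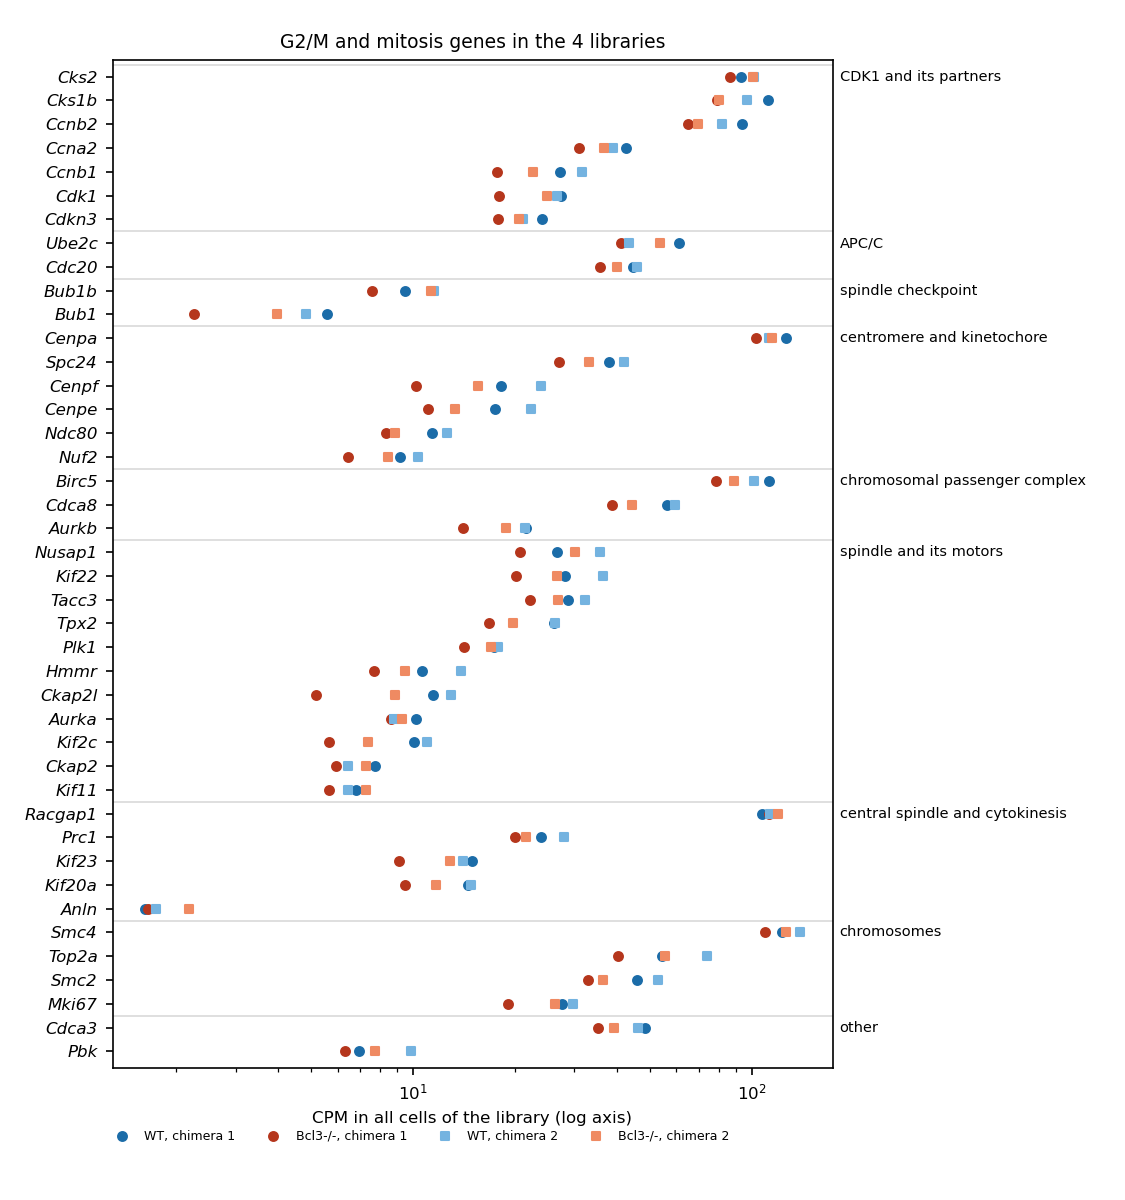
The horizontal axis is the level of each gene in CPM on a log scale, with 1 line per gene, grouped by role, and 1 mark per library. *Smc4* is the most abundant at a mean of 124 CPM and *Anln* the least at 1.80 CPM, and WT marks lie mostly to the right of the *Bcl3*-/- marks of the same chimera.

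The spindle and its motors formed the largest group, 11 genes that summed to 1.80 in WT1, 1.29 in KO1, 2.11 in WT2 and 1.77 in KO2 per 10000 UMIs. All 11 log2 fold changes were below 0, 8 genes were lower in the knockout in both chimeras, and 4 passed the blocked test. Over all genes 33.5% were lower in both chimeras and 4.84% passed as lower. *Tpx2* (chromosome 2, 152847964 to 152895321, plus strand), which activates Aurora A on spindle microtubules, had 26.2 CPM in WT1, 16.8 in KO1, 26.3 in WT2 and 19.8 in KO2. The groups did not overlap, with a log2 difference of -0.52 ± 0.11 (SE; edgeR's adjusted p was 0.00786 with the chimera block and 0.134 without it). *Kif22* (chromosome 7, 127027729 to 127042471, minus strand), a motor that pushes chromosome arms outward, had 28.2 CPM in WT1, 20.2 in KO1, 36.5 in WT2 and 26.7 in KO2. The difference was nearly equal in the chimeras, -0.48 in chimera 1 and -0.45 in chimera 2, with a log2 difference of -0.46 ± 0.09 (SE; edgeR's adjusted p was 0.00675 with the chimera block and 0.271 without it), and without the block it was -0.28 when either KO1 or WT2 was left out. *Ckap2l* (chromosome 2, 129268210 to 129297212, minus strand), a microtubule protein of the spindle pole, had 11.5 CPM in WT1, 5.20 in KO1, 12.9 in WT2 and 8.88 in KO2. KO1 was lowest, and the whole difference was a log2 difference of -0.83 ± 0.18 (SE; edgeR's adjusted p was 0.0103 with the chimera block and 0.220 without it), the most negative log2 fold change of the 42. Without the block, the difference of *Ckap2l* was -0.46 without KO1 and -1.23 without KO2. *Nusap1* (chromosome 2, 119618298 to 119651244, plus strand), which bundles microtubules around chromosomes, had 26.6 CPM in WT1, 20.7 in KO1, 35.7 in WT2 and 30.03 in KO2. The knockout was lower within each chimera, but KO2 exceeded WT1 (log2 difference -0.30 ± 0.20 SE, with edgeR's adjusted p at 0.528 without the block and 0.0589 with it), and it passed the blocked fit in T cell clusters (adjusted p = 0.0355 from edgeR). Without the block, the difference of *Nusap1* was -0.05 without KO1, -0.08 without WT2 and -0.59 without KO2. *Kif2c*, a motor that shortens microtubules, also passed the blocked fit (log2 fold change -0.70, adjusted p = 0.0142 from edgeR). *Aurka*, *Ckap2* and *Kif11* were lower in KO1 than in WT1 and higher in KO2 than in WT2, with log2 ratios in chimera 2 of 0.08, 0.18 and 0.18.

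The central spindle and cytokinesis group had 1.59 in WT1, 1.48 in KO1, 1.74 in WT2 and 1.75 in KO2 per 10000 UMIs, and none of its 5 genes passed either fit over all cells. *Racgap1* (chromosome 15, 99620496 to 99651656, minus strand), the GTPase-activating subunit of centralspindlin, had 107.5 CPM in WT1, 112.5 in KO1, 113.4 in WT2 and 119.8 in KO2. It was slightly higher in the knockout of each chimera, though KO1 lay below WT2 (log2 difference 0.07 ± 0.09 SE, with edgeR's adjusted p at 0.747 without the block and 0.571 with it). *Prc1* (chromosome 7, 80294450 to 80316259, plus strand), which cross-links the microtubules of the central spindle, had 23.9 CPM in WT1, 20.1 in KO1, 27.95 in WT2 and 21.6 in KO2, without overlap (log2 difference -0.31 ± 0.12 SE, with edgeR's adjusted p at 0.277 without the block and 0.0711 with it). Without the block and without WT2, the difference of *Prc1* was -0.21. *Anln* (chromosome 9, 22332012 to 22389188, minus strand), a scaffold of the contractile ring, was the rarest member and had 1.62 CPM in WT1, 1.65 in KO1, 1.75 in WT2 and 2.19 in KO2 (log2 difference 0.19 ± 0.30 SE, with edgeR's adjusted p at 0.815 without the block and 0.783 with it). The motors *Kif23* and *Kif20a* were lower in the knockout in both chimeras, with log2 fold changes of -0.40 and -0.47, and *Kif20a* passed the blocked fit in T cell clusters (adjusted p = 0.0312 from edgeR).

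Genes that act on chromosomes themselves summed to 2.45 in WT1, 1.96 in KO1, 2.99 in WT2 and 2.55 in KO2 per 10000 UMIs. *Smc2* (chromosome 4, 52439243 to 52488260, plus strand), a core subunit of condensin, which compacts mitotic chromosomes, had 45.9 CPM in WT1, 32.9 in KO1, 53.1 in WT2 and 36.4 in KO2. The groups were well apart, with a log2 difference of -0.51 ± 0.08 (SE; edgeR's adjusted p was 0.00160 with the chimera block and 0.119 without it), the lowest adjusted p of the 42 in the blocked fit. *Smc4* (chromosome 3, 69004738 to 69034623, plus strand), its partner in condensin, had 123 CPM in WT1, 109 in KO1, 139 in WT2 and 126 in KO2. The difference of *Smc4* was -0.17 in chimera 1 and -0.14 in chimera 2, and KO2 exceeded WT1 (log2 difference -0.15 ± 0.11 SE, with edgeR's adjusted p at 0.552 without the block and 0.178 with it). *Top2a* (chromosome 11, 98992943 to 99024189, minus strand), the topoisomerase that untangles sister chromatids, had 54.5 CPM in WT1, 40.3 in KO1, 73.6 in WT2 and 55.6 in KO2. Chimera 2 was the higher in both genotypes, so the groups overlapped, whereas within chimeras the ratio was -0.44 in chimera 1 and -0.40 in chimera 2, with a log2 difference of -0.42 ± 0.08 (SE; edgeR's adjusted p was 0.00316 with the chimera block and 0.339 without it). Without the block, the difference of *Top2a* was -0.21 without KO1, -0.20 without WT2 and -0.67 without KO2. *Mki67*, which coats mitotic chromosomes and is the usual marker of proliferating cells, had a ratio of -0.53 in chimera 1 and -0.17 in chimera 2 and did not pass over all cells (adjusted p = 0.0610 from edgeR with the block), and passed the blocked fit in T cell clusters (adjusted p = 0.0194 from edgeR). *Cdca3* (chromosome 6, 124829547 to 124833701, plus strand), an adaptor for the destruction of the mitotic inhibitor WEE1, had 48.4 CPM in WT1, 35.2 in KO1, 46.1 in WT2 and 39.2 in KO2, with a log2 difference of -0.35 ± 0.09 (SE; edgeR's adjusted p was 0.0237 with the chimera block and 0.172 without it). *Pbk* (chromosome 14, 65805837 to 65817822, plus strand), a kinase of mitotic cells, had 6.95 CPM in WT1, 6.33 in KO1, 9.87 in WT2 and 7.76 in KO2 (log2 difference -0.25 ± 0.21 SE, with edgeR's adjusted p at 0.605 without the block and 0.387 with it).

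Of 59 other G2/M genes, 55 were in the count tables and were tested. Their median log2 fold change over all cells was -0.31, with 0 called by edgeR without the block (16 at an unadjusted p under 0.05, 0 by DESeq2) and 1 higher and 10 lower with it, where 4.81% of all genes passed as higher and 4.84% as lower. The lower genes included *Cdca5* (log2 difference -0.62, edgeR's adjusted p with the block 0.0252), which encodes sororin, the guard of sister chromatid cohesion, *Spc25* (-0.41, 0.0299), the partner of *Spc24*, and *Incenp* (-0.30, 0.0446), the scaffold of the chromosomal passenger complex. The higher gene was *Cdc25b* (0.37, 0.00675), a phosphatase that activates CDK1 at mitotic entry. Of 11 regulators of the transcription of such genes, edgeR passed 0 without the block (2 at an unadjusted p under 0.05, 0 by DESeq2), at a median of -0.01. With the block, edgeR passed *Mybl2*, which encodes B-MYB, as lower (log2 difference -0.65, adjusted p 0.0235). The 38 S phase genes, which encode the DNA replication machinery, summed to 14.9 per 10000 UMIs in WT1, 11.1 in KO1, 16.4 in WT2 and 13.1 in KO2. Their median log2 fold change was -0.46, with 0 called by edgeR without the block, where 30 had an unadjusted p under 0.05 against 1808 of all 11566 genes, and 26 lower with the block, where 4.84% of all genes passed as lower. DESeq2 called 7 of the S phase genes lower, where it called 71 of all 16538 genes lower. The fall in summed UMIs was thus present in both phases of the cycle.

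The sum over a library does not say whether fewer cells carried these transcripts, so each T cell was thinned to 1000 UMIs, leaving out 20, 5, 210 and 13 shallower T cells of WT1, KO1, WT2 and KO2. A cell was counted as rich in member UMIs when at least 3 of its 1000 UMIs came from the 42 genes. Such cells were 11.1% in WT1, 7.78% in KO1, 11.1% in WT2 and 9.11% in KO2, with exact 95% binomial intervals of 10.2 to 12.01%, 7.05 to 8.56%, 10.4 to 11.9% and 8.39 to 9.86%, which cover counting error only. WT libraries averaged 11.1 ± 0.0467% and knockout libraries 8.44 ± 0.938% (SD, n = 2 each). Both knockout libraries lay below both WT libraries, at 0.703 of the WT share in chimera 1 and 0.818 in chimera 2. Without thinning, at 30 member UMIs per 10000, the shares were 8.72% in WT1, 5.81% in KO1, 8.52% in WT2 and 6.92% in KO2. The threshold sets a range of a score and not a cell type, and 423, 399, 717 and 549 cells lay just under it at 2 UMIs, and 147, 106, 227 and 139 just inside at 3. In B-like cells, which can divide too, 5 of 107, 0 of 135, 7 of 112 and 4 of 127 cells reached 3 UMIs, that is 4.67%, 0%, 6.25% and 3.15%. The 0 of 135 allows a share of up to 2.70% (exact 95% binomial interval). All B-like cells, 8 shallower ones of WT2 included, had medians of 2329, 2905, 2025.5 and 2637 UMIs before thinning, where T cells had 3554, 3610, 1999 and 2928.

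**Figure D3:**
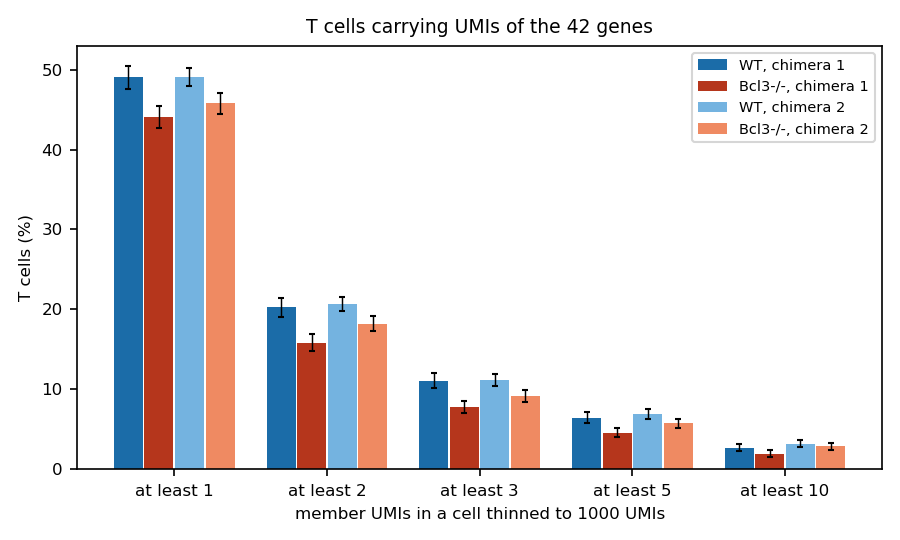
Bars give the percentage of T cells, each thinned to 1000 UMIs, that carried at least 1, 2, 3, 5 or 10 UMIs of the 42 genes in each library, and whiskers are exact 95% binomial intervals. At each of the 5 thresholds both *Bcl3*-/- libraries have a smaller share than the WT library of the same chimera, and at 3 UMIs the shares are 11.1% and 7.78% in chimera 1 and 11.1% and 9.11% in chimera 2.

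The rich cells had a mean of 7.08 member UMIs of 1000 in WT1, 7.05 in KO1, 7.57 in WT2 and 7.996 in KO2. Below the threshold the mean was 0.531 in WT1, 0.481 in KO1, 0.535 in WT2 and 0.503 in KO2, so both knockout libraries were lower there as well. Rich cells held 62.4% in WT1, 55.3% in KO1, 63.9% in WT2 and 61.4% in KO2 of the member UMIs after thinning. Cells could also be sorted by S phase UMIs with the same threshold. Those rich in both programs were 4.28% in WT1, 2.36% in KO1, 4.89% in WT2 and 3.36% in KO2 of T cells, 0.552 of the WT share in chimera 1 and 0.688 in chimera 2. Those rich in the 42 genes alone were 6.78% in WT1, 5.42% in KO1, 6.24% in WT2 and 5.75% in KO2, 0.799 and 0.920 of the WT share, and those rich in S phase genes alone were 7.98% in WT1, 5.82% in KO1, 8.73% in WT2 and 6.09% in KO2, 0.730 and 0.698. All of these classes were smaller in the knockout of each chimera. The class rich in both had the lowest ratio in chimera 1, and in chimera 2 its 0.688 was close to the 0.698 of S phase genes alone. No p is given for these shares, since each is a score over lists chosen with earlier results known.

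To place the genes among T cell states, the cells of each library were clustered without any gene of the cell cycle lists. 2 kinds of cluster in each library were nevertheless led by cycle genes or by genes tied to them. One kind was set apart by a histone or S phase gene among its 10 leading genes and is named here by its first, *Hist1h2ap*. In all 4 libraries its leading genes also held *2810417H13Rik* and *Asf1b*, the S phase genes *Rrm2* and *Lig1* and the members *Top2a* and *Nusap1*, so it was led by genes of both programs. This *Hist1h2ap*-led cluster had 48.2 in WT1, 55.5 in KO1, 63.5 in WT2 and 69.8 in KO2 member UMIs per 10000. The other kind, without a histone or S phase gene among its 10 leading genes, was led by *Ccnb2*, *Cdc20*, *Cenpa* and *Birc5*. It is called mitosis-led here and had 57.2 in WT1, 51.4 in KO1, 33.4 in WT2 and 39.5 in KO2. In this clustering its level was above that of the *Hist1h2ap*-led cluster in WT1 only. The name thus refers to the leading genes and not to a higher member level. After thinning, 66.7% of the cells of the mitosis-led cluster were rich in member UMIs in WT1, 65.6% in KO1, 33.7% in WT2 and 36.4% in KO2. S phase UMIs, which the naming had used in part, were at 45.2 in WT1, 53.7 in KO1, 61.1 in WT2 and 61.9 in KO2 per 10000 in *Hist1h2ap*-led clusters and 10.4 in WT1, 10.8 in KO1, 11.4 in WT2 and 8.62 in KO2 in mitosis-led ones. The other T cell classes had between 4.89 and 7.80. MPEC-gene clusters, led by *Tcf7*, *Ccr7* and *Dapl1*, which memory precursor and naive T cells share, had 6.46 in WT1, 7.80 in KO1, 7.46 in WT2 and 6.25 in KO2. Terminal effector-gene clusters, led by *Gzma*, *S1pr5* and *Zeb2*, had 5.79 in WT1, 6.21 in KO1, 6.28 in WT2 and 6.16 in KO2. Interferon-gene clusters, led by *Ifit1*, *Ifit3* and *Isg15*, had 5.42 in WT1, 4.89 in KO1, 7.57 in WT2 and 4.98 in KO2, and the unnamed T cell clusters had 6.504 in WT1, 5.10 in KO1, 6.29 in WT2 and 5.13 in KO2. B-like clusters had 11.6 in WT1, 4.08 in KO1, 12.3 in WT2 and 5.27 in KO2, and myeloid-like clusters 11.97 in WT1, 10.8 in KO1, 13.7 in WT2 and 20.3 in KO2. In KO1 *Cd4* was among the 10 leading genes of the MPEC-gene cluster, which had 140 cells. An unnamed cluster of KO1, with 1027 cells at 4.45, had *Il7r*, *Tcf7*, *Bcl2* and *Slamf6* among its 10 leading genes. Cells led by MPEC genes thus lay partly in the unnamed class there. These levels come from clusters of the same cells and are descriptions.

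**Figure D4:**
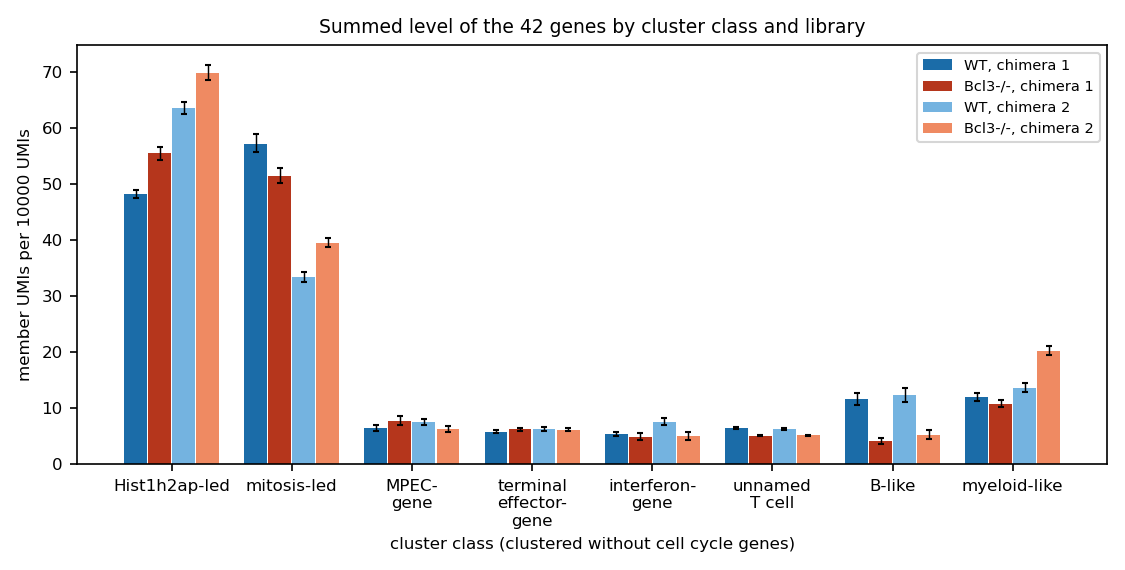
Bars give the summed UMIs of the 42 genes per 10000 UMIs in each cluster class of each library, and whiskers are exact 95% Poisson intervals, which cover counting error only. The *Hist1h2ap*-led and mitosis-led classes lie between 33.4 and 69.8, and the MPEC-gene, terminal effector-gene, interferon-gene and unnamed T cell classes between 4.89 and 7.80.

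Together the *Hist1h2ap*-led and mitosis-led clusters held 14.0% of T cells in WT1, 8.64% in KO1, 17.0% in WT2 and 15.8% in KO2, and 69.4%, 61.5%, 70.9% and 71.3% of the member UMIs of T cells. At resolution 0.8 their member level was 50.1, 53.7, 50.3 and 52.4 per 10000, higher in the knockout of each chimera. At a clustering resolution of 0.4 in place of 0.8 these clusters held 14.2%, 6.04%, 9.73% and 32.5% of T cells, so their share depended on how finely cells were clustered. Their level at 0.4 was 66.1 per 10000 in WT2, where KO2 had 1672 cells at 16.8 and 294 cells at 70.0. The higher level in the knockout was thus not kept in chimera 2 at 0.4. Within these clusters edgeR called 0 members without the block (1 at an unadjusted p under 0.05, against 858 of all genes), where 0.337% of 9503 genes passed, and 0 with the block (6 at an unadjusted p under 0.05, 2 of them lower and *Cenpa*, *Racgap1*, *Ckap2* and *Cks2* higher, against 1369 of all genes), where 2.20% passed. DESeq2 was not run on these cells. The median log2 fold change of the 42 was 0.02 without the block and 0.01 with it. In the T cells outside them the level was 6.24 in WT1, 5.46 in KO1, 6.45 in WT2 and 5.38 in KO2 per 10000, lower in the knockout of each chimera. There edgeR tested 40 of the 42 genes and called 0 without the block (8 at an unadjusted p under 0.05, against 1341 of all 10736 genes), where 0.242% of all genes passed. With the block it called 3 lower, where 1.08% of all genes passed, and the median of the 40 was -0.36. The 3 were *Cenpf* (log2 difference -1.39, edgeR's adjusted p 0.0459), *Ccnb2* (-0.68, 0.0397) and *Birc5* (-0.65, 0.0213). The cells that went into each fit were chosen by clustering, and membership at its edge was not tested.

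The cycling clusters were named from raised genes of the cycle, the 42 among them, so that their levels there are a description that the naming largely fixed. All 42 had a higher mean over the libraries in these clusters than in the unnamed T cell clusters, from 1.23 on the log2 scale for *Smc4* to 5.49 for *Hmmr*, with a median of 3.84. *Racgap1* was also near the low end at 1.44, with 83.8 CPM in the unnamed clusters, and *Smc4* had 98.2 CPM there. In MPEC-gene clusters *Smc4* had a mean of 174 CPM, above the 131 CPM of mitosis-led clusters, though not in WT1 (129 against 136 CPM). *Racgap1* had a mean of 146 CPM in terminal effector-gene clusters, against 214 CPM in mitosis-led ones. High levels of these genes were thus not limited to the cycling clusters. Neither passed the blocked test between genotypes. *Pbk* had 1.06 CPM in those clusters and 57.9 CPM in the *Hist1h2ap*-led ones.

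The genes divided unevenly between the 2 kinds of cycling cluster. In all 4 libraries 21 genes were lower in the mitosis-led than in the *Hist1h2ap*-led cluster, 4 were higher, and 17 were mixed. The split depended on the clustering. At a resolution of 1.2, 13 genes were lower, all among the 21, and 16 higher, the 4 among them, and with all genes in the clustering 20 of the 21 were lower and 15 genes higher. At 1.2 the mitosis-led clusters also had the higher member level in 3 libraries, with 95.4 against 54.5 per 10000 in KO1, 77.7 against 63.3 in WT2 and 100.5 against 69.6 in KO2, and 48.6 against 52.4 in WT1. At 0.8, the 4 higher genes were *Cenpa* (mean log2 ratio 1.13), *Ccnb2* (0.85), *Cdkn3* (0.80), a phosphatase that acts on CDK1 and CDK2, and *Cdc20* (0.77). The farthest to the other side were *Pbk* (-4.01), *Top2a* (-3.09), *Aurkb* (-2.97) and *Nusap1* (-2.63). *Cdk1* lay at -2.26 and its cyclins apart from it, with *Ccna2* at -0.96 and *Ccnb1* at 0.25. *Aurka* (-1.35) and *Aurkb* were both lower in the mitosis-led cluster. For 40 of the 42 genes both ratios of chimera 1 lay above both of chimera 2, whose mitosis-led clusters held more of the T cells (9.86% in WT2 and 10.9% in KO2 against 4.54% in WT1 and 4.46% in KO1) at a lower member level.

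**Figure D5:**
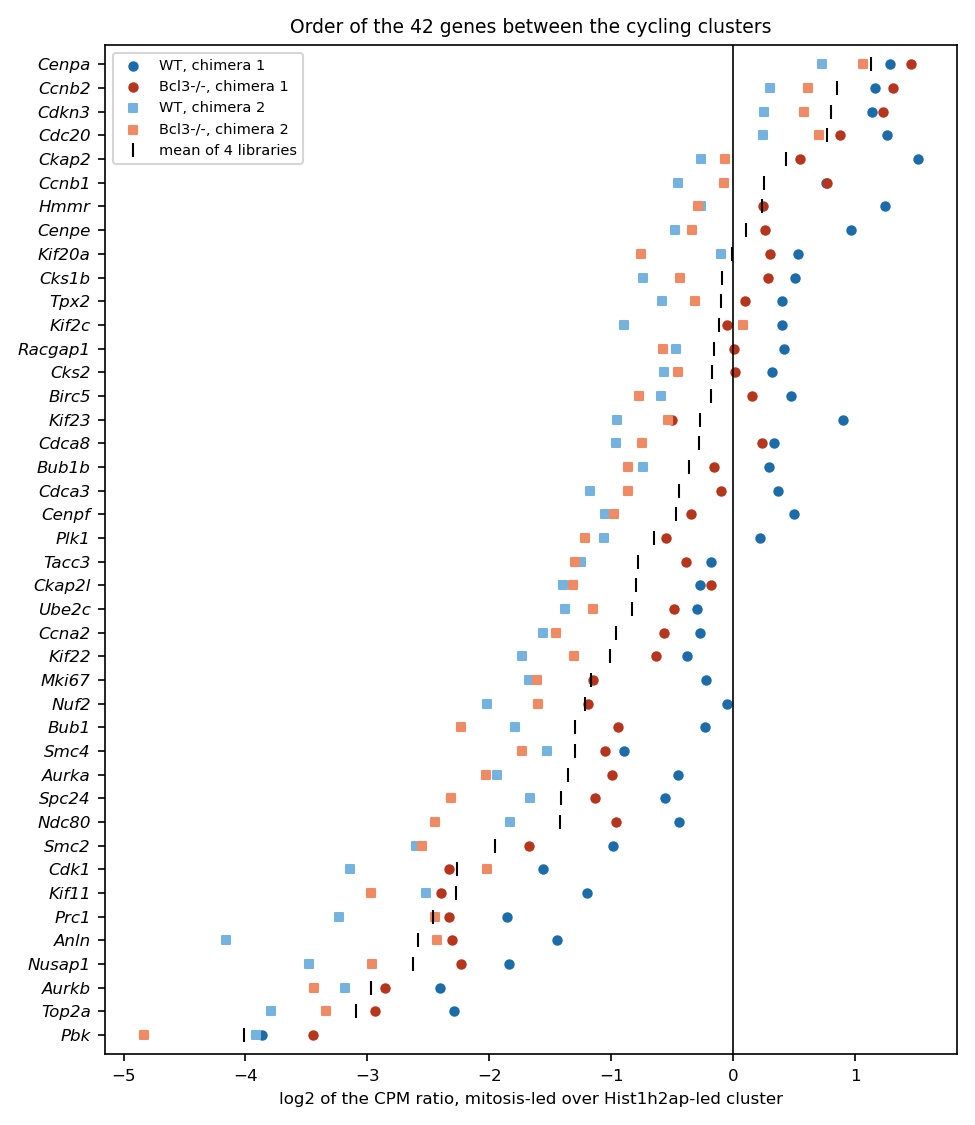
The horizontal axis is the log2 ratio of CPM in the mitosis-led over the *Hist1h2ap*-led cluster at resolution 0.8, with 1 line per gene, 1 mark per library and a tick at the mean of the 4 libraries. The genes run from *Pbk* at -4.01 to *Cenpa* at 1.13, and 4 genes lie right of 0 in every library.

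Single genes were sparse in single cells. After thinning, the genes found in the largest share of T cells were *Smc4* (10.7%), *Racgap1* (10.5%), *Cenpa* (7.68%) and *Cks2* (7.26%), as means of the 4 libraries. In the 481 B-like cells *Smc4* was found in 9.15%, *Cenpa* in 4.99% and *Birc5* in 3.95%, where *Birc5* was found in 5.68% of T cells. For *Smc4* the share in T cells was therefore near that in B-like cells. Across T cells of a library, *Birc5* followed the other members most closely, with a mean Pearson correlation of 0.494 over the 4 libraries (range 0.468 to 0.523), then *Cks1b* (0.435) and *Cdc20* (0.433), and *Anln* the least (0.045). Outside the cell cycle lists, the genes most like the summed members by the same measure were *2810417H13Rik* (0.44), *Ube2s* (0.37), *Tmpo* (0.29), *Anp32e* (0.27), *Mxd3* (0.25), *Asf1b* (0.24), *Knstrn* (0.23), *Nucks1* (0.20), *Ppia* (0.20) and *Spag5* (0.18). The cells of a library share its depth and preparation, and these correlations are descriptions.

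Cells rich in the 42 genes were then compared with T cells that had 0 member UMIs, as sums per library with library as a block, for genes of T cell states that the score did not use. Of 9771 genes tested by edgeR, 23.0% were higher and 21.7% lower in the rich cells, so a call is common in this comparison. Rich cells were also deeper, with medians of 4722 against 3462 UMIs in WT1, 4899 against 3558 in KO1, 2542 against 1965 in WT2 and 3686 against 2883 in KO2. Of 6 MPEC genes tested, 5 were lower in the rich cells and 0 higher, at a median log2 fold change of -0.60. *Il7r*, the receptor chain for the survival cytokine IL-7, had 16.4 ± 4.95 CPM (SD, n = 4) against 44.8 ± 14.99 CPM, a log2 difference of -1.42 ± 0.11 (SE; edgeR's adjusted p was 9.31e-15). *Bcl2*, which protects cells from apoptosis, had 65.1 ± 7.30 CPM (SD, n = 4) against 150.2 ± 12.4 CPM, a log2 difference of -1.21 ± 0.06 (SE; edgeR's adjusted p was 1.96e-21). *Tcf7*, which encodes the memory factor TCF-1, had 38.8 ± 2.15 CPM (SD, n = 4) against 58.2 ± 10.7 CPM, a log2 difference of -0.58 ± 0.09 (SE; edgeR's adjusted p was 5.29e-07). All 3 were lower in the rich cells of each of the 4 libraries.

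Of 10 interferon-stimulated genes, 8 were lower and 0 higher, among them *Ifit3* (21.9 ± 12.1 CPM (SD, n = 4) against 49.99 ± 18.9 CPM, a log2 difference of -1.18 ± 0.10 (SE; edgeR's adjusted p was 2.23e-13)). Of 6 terminal effector genes, 4 were lower, and the granzyme gene *Gzma* (log2 fold change 0.05) and the chemokine receptor gene *Cx3cr1* (0.08) did not pass. One of the 4, *Klrg1*, had 133 against 186 CPM in WT1 and 124 against 183 in WT2, but 269 against 262 in KO1 and 213 against 204 in KO2, so it was lower in the rich cells of the WT libraries only, and a difference between the genotypes in this was not tested. Of 6 effector genes, 3 were lower, with *Cxcr6*, a chemokine receptor gene of effector and tissue T cells, at -0.64. Naive T cell genes had 3 of 4 lower. General markers of these T cells (*Cd3e*, *Cd3d*, *Cd3g*, *Cd2* and the CD8 chains *Cd8a* and *Cd8b1*) had 5 of 6 lower, all but *Cd8a*, with a median of -0.31. The median over all 9771 genes was -0.02. Of genes of other cell types, 1 of 6 B cell genes (*Cd74*), 1 of 3 plasma cell genes (*Xbp1*) and 1 of 10 myeloid genes (*Mpo*) were higher, and 3 myeloid genes (*Lyz2*, *Cd68* and *Tyrobp*) lower. *Cd74* was higher in 3 of 4 libraries, *Mpo* in 2 of 4, and *Tyrobp* was lower in 3 of 4. *Mpo*, the peroxidase gene of neutrophil precursors, had 16.8 CPM in the rich cells of KO1 and at most 2.16 CPM in those of the other libraries.

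Read the other way, cells rich in member UMIs were 5.33 ± 2.16% (SD, n = 4 libraries) of the T cells with an *Il7r* UMI and 9.96 ± 1.61% of those without. The share was lower among *Il7r*-positive cells in each of the 4 libraries. They were 5.05 ± 1.32% (SD, n = 4 libraries) of the T cells with a *Bcl2* UMI and 10.4 ± 1.73% of those without, also lower in 4 of 4 libraries. Of the other MPEC genes, *Tcf7* had 7.27% against 9.90%, lower in 4 of 4 libraries, and *Ccr7* 5.98% against 9.80%, lower in 3 of 4. *Id3* had 12.5% against 9.75% and *Slamf6* 9.82% against 9.76%, each higher in 3 of 4 libraries, and *Xcl1* had a UMI in as few as 2 cells of a library. Of the 6 terminal effector genes, *Zeb2* had 7.74% against 9.90%, lower in 4 of 4 libraries. *S1pr5* had 8.10% against 9.81% and *Tbx21* 9.08% against 9.86%, each lower in 3 of 4, and *Cx3cr1* 10.1% against 9.73%, lower in 2 and higher in the other two. Rich cells were 9.53 ± 1.10% (SD, n = 4 libraries) of the T cells with a *Klrg1* UMI and 9.79 ± 1.81% of those without, lower in 2 of 4 libraries and higher in the other two, *Klrg1* being the surface receptor of short-lived effector cells. *Gzma* was the terminal effector gene with the higher share among positive cells in 4 of 4 libraries, with 10.8 ± 2.21% (SD, n = 4 libraries) of the T cells with a *Gzma* UMI and 9.31 ± 1.49% of those without. A cell without a UMI of a gene may still express it, since each cell was thinned to 1000 UMIs.

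Some markers of other cells and states differed between the genotypes too, whereas the summed B cell, plasma cell and naive T cell genes went opposite ways in the 2 chimeras. The 6 terminal effector genes summed to 13.4 per 10000 UMIs in WT1, 23.7 in KO1, 16.6 in WT2 and 24.0 in KO2, with *Gzma* the most abundant. The 10 myeloid genes summed to 24.7, 34.5, 23.7 and 36.8, led by *Lyz2* in the WT and *S100a8* in the knockout libraries, and in T cell clusters alone to 5.87, 7.73, 4.75 and 5.24. None of the 10 was at 0 in any library. Interferon-stimulated genes summed to 11.3, 8.49, 17.6 and 11.4. The part of these in the lower member UMIs of the knockout was not tested; in T cell clusters alone, which leave out the myeloid-like cells, the member sum was 0.767 of the WT level in chimera 1 and 0.885 in chimera 2.

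Of the 27 members with TTTGAA within the 300 bases, 10 passed the blocked test over all cells, at a median log2 fold change of -0.33, and of the 8 without it 3 passed, at a median of -0.38. Over all genes 4.84% passed as lower in that test, and they were not split by these letters. *Racgap1*, shown above with TTTGAA at its start, was higher in the knockout of both chimeras without passing. *Ccnb1*, which has no TTTGAA within the 300 bases, passed. *Smc2* also passed and counts among the 27, since its TTTGAA lies within the 300 bases but outside the shorter sequence shown above.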

How the data were processed

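Single-cell RNA was measured in 4 libraries. The authors counted UMIs with Cell Ranger (version 2.2.0 and genome build mm10 in the submitters' processing notes) and deposited raw counts per gene and barcode, with no filter on barcodes. Groups came from the labels. Cells had at least 500 genes and no more than 10% mitochondrial UMIs. UMIs were summed per library and compared by the quasi-likelihood test of edgeR 4.0.16 after TMM scaling and filterByExpr, with Benjamini-Hochberg adjustment over all genes at 0.05, with and without chimera as a block. WT and knockout libraries of a number came from the same animal, and their deviations correlated at r = 0.293 over 6862 genes above 10 CPM, given as a description. Seurat 5.3.0 clustered each library on 2000 variable genes outside the cell cycle lists (15 principal components, resolution 0.8). A cluster was named from at least 3 markers raised at least 2-fold and found in 10% of its cells, with 1 among its 10 leading genes. Scrublet (scanpy 1.11.5) called 0 doublets by its own threshold, and leaving out the 5% of cells with the highest scores was tried. Genes named are the 2 most abundant of each role, up to 12 called, and the extremes; *Cdk1*, *Mki67* and the other genes named by difference alone were added after their values were seen. The members and lists were chosen with earlier results of these data known. DESeq2 1.42.0, another normalization, filters, thinning and leaving out libraries were tried as alternatives. Promoters were taken from RefSeq, and 353 of the 27998 genes had no match in the annotation used for coordinates.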

Additional observations from a re-analysis of the deposited data

How the results depend on the processing

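The count of members lower in *Bcl3*-/- cells, 0 by edgeR without a block, depended on the fit. With the replicate block it was 15 over all cells and 23 in T cell clusters, where 4.84% and 6.14% of all genes passed as lower. DESeq2 gave 1 over all cells, where it called 71 of all 16538 genes lower. The T cells outside the cycling clusters gave 3 with the replicate block. The median log2 fold change over all cells lay between -0.50 and -0.20 with 1 library left out, and the difference in member sum between -4.23 and -1.15 per 10000 UMIs.

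The difference in the share of T cells rich in member UMIs was -2.65 percentage points, -3.45 at a threshold of 2 UMIs and -1.53 at 5, and -3.32 to -1.99 with 1 library left out. The difference in the share of T cells in cycling clusters reversed to 7.27 points at resolution 0.4, and ran from -6.87 to 0.27 with 1 library left out, reversed without KO1. The member level of mitosis-led clusters was 16.8 at resolution 0.4, where 1 library had such a cluster, and 80.6 at resolution 1.2. Cycling clusters together had 64.7 at resolution 1.2 and 54.5 with all genes in the clustering, which gave 5.89 in terminal effector-gene clusters. Of the 42 genes, 21 were lower and 4 higher in the mitosis-led than in the *Hist1h2ap*-led cluster of all 4 libraries, 13 and 16 at resolution 1.2, and 20 and 15 with all genes in the clustering. At resolution 0.4 an MPEC-gene cluster was found in 3 libraries. The cause was not tested.

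Of single genes, *Ube2c* ran from -0.37 to 0.12 on the log2 scale with 1 library left out (0.12 without WT1, 0.0385 without KO1), *Bub1b* from -0.48 to 0.10 (above 0 without KO1) and to 0.0323 with thinned cells, *Cks2* from -0.17 to 0.0494 (above 0 without KO1), *Anln* from -0.0276 (without KO2) to 0.37, and *Pbk* from -0.49 to 0.0104 (above 0 without WT2). The remaining 118 values for the main results and 297 for single genes kept their direction and, where tested, their side of the threshold, or moved by less than the replicate spread, and 19 for single genes passed where they had not. Of the members called with the block, 4 kept their direction but moved by over 1.5 times in the fit without it when 1 library was left out, which leaves the chimeras unbalanced. *Top2a* ran from -0.67 (without KO2) to -0.20 (without WT2; -0.21 without KO1), *Cenpf* from -1.04 (without KO2) to -0.43 (without KO1), *Ckap2l* from -1.23 (without KO2) to -0.46 (without KO1) and *Kif22* from -0.68 (without KO2) to -0.28 (without KO1 or WT2). Of the named members not called, *Nusap1* ran from -0.59 (without KO2) to -0.05 (without KO1), *Bub1* from -1.20 (without KO2) to -0.39 (without KO1), *Cenpa* from -0.22 (without WT2) to -0.05 (without WT1), *Smc4* from -0.26 (without KO2) to -0.05 (without KO1), *Prc1* from -0.43 (without WT1) to -0.21 (without WT2) and *Racgap1* from 0.03 (without KO2) to 0.11 (without KO1). The doublet filter, the fits within cycling and other T cells, and the clustering alternatives for the share of cycling clusters and for the split between them were chosen after seeing the data. With 2 libraries per genotype, the precision of each difference is limited by the number of animals, and genes near 2 CPM such as *Anln* also by counts.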
